A study of Mus musculus with 59 samples.

Results

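The genes described here are the replication origin and fork genes, a list of 40 that encode the machinery that licenses, opens and copies DNA. They were chosen by name and role and not by their measured values, though with earlier results of these data known. Each is represented by its brightest probe set, judged by the mean of all arrays. Of the 40, 39 had a probe set and 1, Chaf1a, had none and was not analysed here. The 39 stood among 18193 genes measured on 59 Affymetrix mouse arrays. By role they were 11 helicase genes, 7 licensing genes, 8 polymerase genes, 6 clamp and loader genes, 3 measured genes of RPA and CAF-1, and 4 genes of nucleotide supply.

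Before S phase, the origin recognition complex (ORC), Cdc6 and Cdt1 load the MCM helicase ring onto DNA, and geminin and the Dtl ubiquitin ligase prevent a repeat round of loading. At the start of S phase, Cdc45 and the GINS complex join MCM to form the active helicase, primase and DNA polymerase alpha lay down primers, and polymerases delta and epsilon extend them on the PCNA clamp, which replication factor C (RFC) loads. Many of these genes are known targets of E2F factors, which the RB family holds in check in resting cells.

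The arrays came from mouse models of serous epithelial ovarian cancer (SEOC). In these models, Cre delivered by adenovirus into the ovarian bursa switches on a transgene under keratin 18 control (K18 tg in the labels) that inactivates the RB family. All tumors carried this transgene and an altered p53, so no tumor group had an intact RB pathway, and the virus set which cells recombined, while keratin 18 control set which of these expressed the transgene. The published set held 3 normal ovarian epithelium samples from wild type FVB/NJ mice and 26 primary tumors. Of these tumors, 14 were Brca1-deficient with deleted p53 (B1 fl/fl, p53 fl/fl), 4 were Brca-wild type with deleted p53, 3 were Brca1-deficient with 1 missense and 1 deleted p53 allele (p53 m/fl), and 5 were Brca2-deficient (B2 fl/fl) with the same p53 alleles. The new set held 30 tumors with deleted p53 (written cp D/D in the labels, and given as p53 deletion for the parent lines in the study's methods): 5 primary tumors, 2 Brca1-deficient and 3 Brca1-wild type, and 25 passaged tumors grown from fragments transplanted under the bursa of FVB females. Passage 1 had 8 arrays, passage 2 had 9, passage 3 had 4, and passages 4 and 5 had 2 each. Passages 3 to 5 were Brca1-deficient only. For the mice's ages at collection and the parent line of each passaged tumor, values are not given in the sources used here. Tumors that descend from a shared line were therefore treated as independent. This can make p-values too small between genotypes and against normal epithelium. Between primary and passaged tumors, or along passage, it can make them too small or too large. It is likewise not stated if each normal sample is a different mouse, so the spread between these samples may be technical. The tests pool the spread within groups, and the tumors are far more numerous than the normal samples. Standard errors and p-values against normal epithelium therefore reflect mainly the spread among tumors, also where the normal samples are spread widely.

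Array medians over the probe sets lay between 7.20 and 7.51 on the log2 scale. The lower quartile was highest for tumors 29255 (new primary, 5.71) and 57452 (passage 1, 5.69), and lay between 5.40 and 5.62 on the other arrays. Brca1 transcript levels overlapped between genotypes, from 9.55 to 11.18 in the Brca1-deficient p53-deleted tumors and from 9.77 to 10.74 in the Brca-wild type tumors of the published set, and the position of the probe set relative to the deleted part was not checked, so these levels do not test the labels. Tumors 65021 and 64644 of passage 3 had nearly the same values on every probe set, with an SD of 0.0722 for their difference, and were counted as 1 sample in group means. Tumor 62803, labelled Brca1-wild type, and tumor 61362, labelled Brca1-deficient, both of passage 2, were likewise nearly identical (SD 0.0803), against 0.209 for the next closest pair. Both were left out of the group means by genotype, and comparisons that used them are also given without one of them. The tests kept all of these arrays unless stated. Tumor 30200 was profiled in both sets, with an SD of 0.306 between its arrays.

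Promoter windows of these genes held E2F-type motifs more often than those of other genes, which is a description of letters, not of sites. In RefSeq (GRCm38.p6) windows from 250 bases before to 50 bases after each gene's start, 33 of the 40 members had an entry, in 36 windows. The motifs TTTCCCGC, TTTCGCGC, TTTGCCGC and TTTGGCGC, on either strand, occurred in 36.1% of the member windows, in 2.26% of all 32851 windows and in 3.21% of the 18109 windows of measured genes. CCAAT occurred in 69.4% against 37.4%, and the CHR-type motifs TTTGAA and TTCGAA in 16.7% against 19.2% of all windows and 15.1% of those of measured genes. Members with an E2F-type motif were 5 of 8 helicase, 4 of 6 licensing, 3 of 6 polymerase, 1 of 5 clamp and loader, 0 of 4 RPA and CAF-1, and 0 of 4 nucleotide supply genes. The windows below are those of the member with the largest rise in the tumors among the helicase, licensing, clamp and nucleotide supply genes, and of the polymerase member with the largest rise among those with an entry, so that the windows can be set beside the changes that follow. Capitals mark an E2F-type motif on either strand, and sequences read 5′ to 3′ along the gene.
Mcm6: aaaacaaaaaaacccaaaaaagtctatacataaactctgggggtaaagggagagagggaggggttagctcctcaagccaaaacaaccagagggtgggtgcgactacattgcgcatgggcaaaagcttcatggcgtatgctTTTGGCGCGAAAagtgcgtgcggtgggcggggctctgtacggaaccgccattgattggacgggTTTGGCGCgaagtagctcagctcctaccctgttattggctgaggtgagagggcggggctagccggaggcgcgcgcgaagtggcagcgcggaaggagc
Cdc6: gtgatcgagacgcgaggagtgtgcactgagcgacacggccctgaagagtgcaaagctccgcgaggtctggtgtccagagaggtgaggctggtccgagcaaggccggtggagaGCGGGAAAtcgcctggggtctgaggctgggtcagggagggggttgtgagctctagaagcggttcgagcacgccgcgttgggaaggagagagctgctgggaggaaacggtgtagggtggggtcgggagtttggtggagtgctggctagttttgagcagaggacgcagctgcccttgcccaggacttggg
Pola1: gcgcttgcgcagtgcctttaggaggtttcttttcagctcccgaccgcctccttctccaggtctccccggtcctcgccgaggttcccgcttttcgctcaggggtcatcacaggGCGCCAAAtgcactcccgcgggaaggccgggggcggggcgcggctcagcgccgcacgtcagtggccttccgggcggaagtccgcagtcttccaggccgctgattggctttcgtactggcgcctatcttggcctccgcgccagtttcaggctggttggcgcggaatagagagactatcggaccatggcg
Rfc3: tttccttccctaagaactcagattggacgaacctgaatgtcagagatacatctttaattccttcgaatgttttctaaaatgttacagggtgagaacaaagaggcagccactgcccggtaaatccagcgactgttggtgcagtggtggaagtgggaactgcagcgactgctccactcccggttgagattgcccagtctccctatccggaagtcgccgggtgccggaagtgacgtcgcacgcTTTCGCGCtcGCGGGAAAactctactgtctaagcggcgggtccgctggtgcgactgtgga
Tk1: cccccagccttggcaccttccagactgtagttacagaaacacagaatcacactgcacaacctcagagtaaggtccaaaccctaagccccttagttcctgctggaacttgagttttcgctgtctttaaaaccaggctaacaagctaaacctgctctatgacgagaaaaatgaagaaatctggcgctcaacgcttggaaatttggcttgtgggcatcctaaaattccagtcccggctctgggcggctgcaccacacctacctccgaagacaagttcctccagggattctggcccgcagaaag
The Mcm6 window (chr1:128359656-128359955, minus strand) held 3 matches that began at -110, -106 and -47 bases from the start, of which the first pair overlap on opposite strands. Those of Cdc6 (chr11:98907901-98908200, plus strand) and Pola1 (chrX:93632106-93632405, minus strand) held 1 match each, both at -138. The Rfc3 window (chr5:151651159-151651458, minus strand) held matches at -10 and 1. The Tk1 window (chr11:117825965-117826264, minus strand) held none of the letters searched, as did that of Chaf1b.

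Nearly all of the replication genes were higher in the primary tumors than in normal epithelium. Of the 39 members, 36 rose and 0 fell (limma, Benjamini-Hochberg adjusted p under 0.05 over all 18193 genes), against 15.0% of all genes higher and 26% lower. The median log2 difference of the members was 1.23, against -0.11 over all genes. The 3 that did not pass were Mcm4, Orc2 and Rfc2. For 29 of the 39 members, every one of the 26 tumors lay above every normal sample, which held for 5.13% of all genes. In bulk tissue, fewer cells of a type and less RNA per cell cannot be told apart, so these are levels of the sample and not of a cell.

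**Figure D1:**
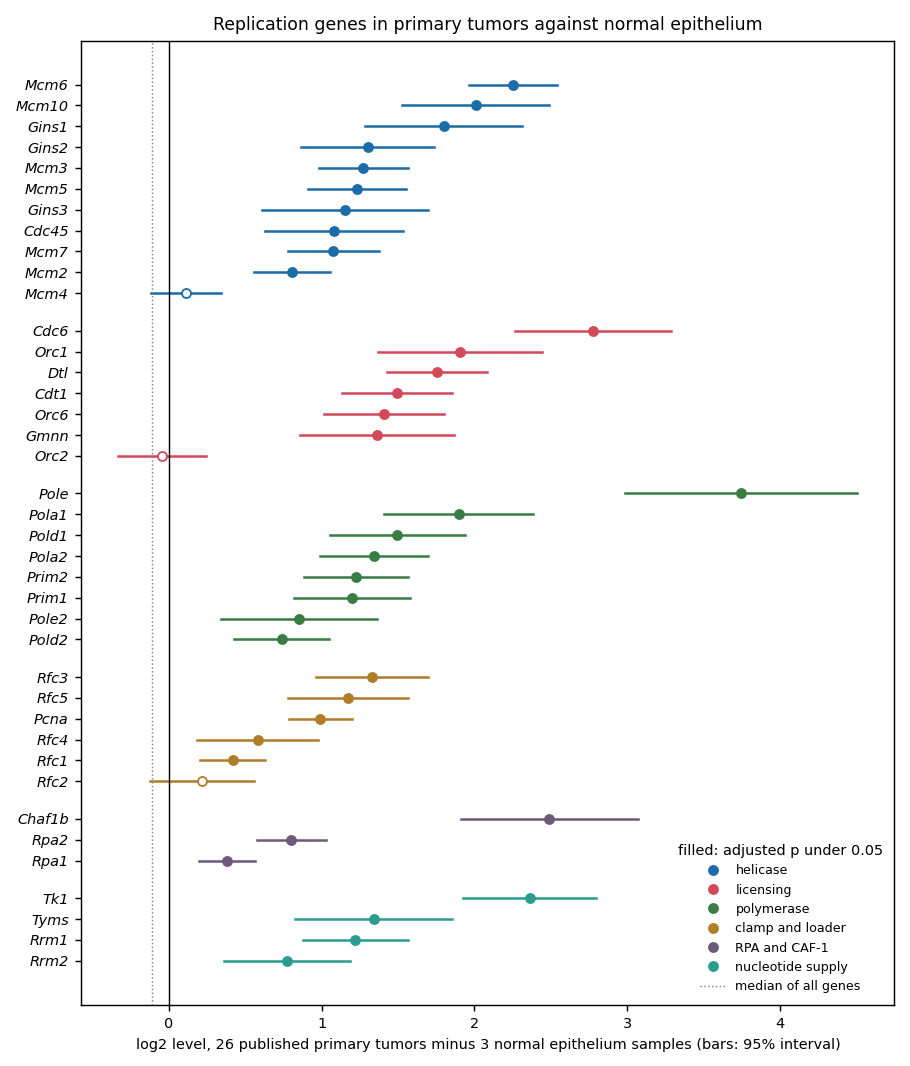
Difference in log2 level between 26 published primary tumors and 3 normal epithelium samples (x axis) for each of the 39 measured members, grouped and coloured by role, with bars for the 95% confidence interval. Filled points passed the adjusted p of 0.05, the open points of Mcm4, Orc2 and Rfc2 did not, and Pole lies farthest to the right at 3.75.

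The normal samples differed from the tumors in cell makeup as well, by the marker lists. Oocyte markers were lower in the tumors for 11 of 12 genes, with a mean level of 9.08 to 10.2 in the normal samples and 5.21 to 6.13 in the tumors. Granulosa, theca and luteal markers were lower for 8 of 10, with a mean of 9.95 to 10.4 against 7.16 to 8.65, and fibroblast markers for 4 of 8, with 11.01 to 11.30 against 7.69 to 11.64. The genes that mark T and NK cells were lower in 7 of 7 cases, with 6.38 to 7.59 against 5.39 to 6.69, and endothelial markers for 3 of 7, with 9.36 to 9.62 against 8.06 to 10.2. Of 9 macrophage markers, 1 was higher and 2 lower, with a mean of 9.27 to 10.0 against 8.10 to 10.7. Epithelial markers were higher for 6 of 11, with 10.9 to 11.6 against 11.2 to 12.6. The normal samples thus held oocyte, ovarian somatic and fibroblast transcripts beside the epithelial ones, and are called normal epithelium here only by their label. All 13 measured proliferation genes were higher, with a mean of 8.33 to 9.07 against 10.1 to 11.4. No marker is at 0 on this log2 scale, and the part of these cell types in the result was not tested.

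Among the helicase genes, 10 of 11 rose, with a median log2 difference of 1.23. Mcm6, a subunit of the hexameric MCM ring, had log2 levels of 9.82, 10.00 and 10.52 in the normal samples, and 11.92 at the lowest, 12.36 at the median and 12.79 at the highest in the tumors. The gap between the groups was wider than the whole spread of the tumors. The difference was 2.25 ± 0.14 (SE), or 4.77-fold (limma, adjusted p = 1.62e-13). Mcm10, which helps the helicase to start, stood at 7.72, 7.29 and 7.70 against 8.63, 9.70 and 10.16 (lowest, median and highest tumor), a rise of 2.01 ± 0.24 (limma, adjusted p = 8.91e-08). On the probe sets used, the other ring subunits rose less. The log2 differences were 1.27 for Mcm3, 1.23 for Mcm5, 1.08 for Mcm7 and 0.80 for Mcm2, with adjusted p from 3.75e-08 to 5.17e-06 (limma), and in none of these 4 did a tumor overlap a normal sample. This order depended on the probe set. Other probe sets gave 1.23 to 2.13 for Mcm3, 1.70 and -0.38 for Mcm5, 0.78 to 1.06 for Mcm7 and 1.96 for Mcm2. Those of Mcm6 gave 1.95 and 0.05. The values of -0.38 and 0.05 came from dim probe sets, with mean levels of 5.29 and 4.80. Mcm4, also a ring subunit, had levels of 12.22, 12.38 and 12.29 in the normal samples, inside the tumor range of 11.96 to 12.81, and the difference of 0.11 ± 0.11 did not pass (limma, adjusted p = 0.446). Cdc45, which binds the ring to form the active helicase, rose by 1.08 ± 0.22 from 8.44, 8.07 and 8.37 to a tumor median of 9.40, and its lowest tumor at 8.51 lay just above the highest normal sample. The GINS subunits Gins1, Gins2 and Gins3 rose by 1.80, 1.30 and 1.15, with adjusted p from 1.7e-06 to 0.000945 (limma). Their normal samples were spread widely, from 7.96 to 9.54 for Gins1 and from 8.15 to 9.83 for Gins2, and 1 tumor for Gins2 and 3 for Gins3 lay at or below the highest normal sample.

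Of the 7 licensing genes, 6 rose, with a median log2 difference of 1.49. Cdc6, the ATPase that helps ORC to load MCM, had the largest rise of this group on the probe sets used. Its levels were 6.20, 7.30 and 7.60 in the normal samples and 8.93, 9.87 and 10.37 (lowest, median, highest) in the tumors. No tumor came near the normal range, and the difference was 2.77 ± 0.25, or 6.84-fold (limma, adjusted p = 5.51e-10). Orc1, the ORC subunit whose level varies through the cell cycle in human cells, stood at 6.31, 6.79 and 6.68 against 7.39 to 9.24 in the tumors, a difference of 1.90 ± 0.26 (limma, adjusted p = 1.38e-06). Dtl, the substrate receptor that sends Cdt1 for degradation, rose by 1.75 ± 0.16, the loader Cdt1 by 1.49 ± 0.18, the ORC subunit Orc6 by 1.41 ± 0.19, and geminin (Gmnn), the Cdt1 inhibitor, by 1.36 ± 0.25. In each of these 4, all 26 tumors lay above the 3 normal samples. Other Dtl probe sets rose by 1.01 to 3.44, the highest of them more than Cdc6, so the order within this group depends on the probe set. Orc2, a core ORC subunit, had levels of 10.75, 11.05 and 11.08 in the normal samples and 10.53, 10.89 and 11.54 in the tumors. The groups overlapped throughout, and the difference was -0.04 ± 0.14 (limma, adjusted p = 0.827). Genes for the loaders and for the inhibitors of loading rose alike, whereas this core ORC subunit did not pass.

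All 8 polymerase genes rose, with a median of 1.28. Pole, the catalytic subunit of the leading-strand polymerase epsilon, had the largest difference of all the members and ranked 12 of 18193 genes by rise. It was measured at 6.92, 7.35 and 7.39 in the normal samples and at 9.70, 11.06 and 12 (lowest, median, highest) in the tumors. The lowest tumor was well above the highest normal sample, and the difference was 3.75 ± 0.37, or 13.4-fold (limma, adjusted p = 4e-09). It was also the member most variable among tumors, with an SD of 0.65. Pole2, the second subunit of the same enzyme, changed far less. Its levels were 8.51, 8.56 and 8.92 against 8.60, 9.58 and 10.19, with 2 tumors at or below the highest normal sample, and the difference was 0.85 ± 0.25 (limma, adjusted p = 0.00722, and 0.051 without the first normal sample). For polymerase delta, which copies mainly the lagging strand, the catalytic subunit Pold1 rose by 1.49 ± 0.22 and the accessory subunit Pold2 by 0.74 ± 0.15 (limma, adjusted p = 2.77e-06 and 0.000311). Pola1, the catalytic subunit of the priming polymerase alpha, had normal levels of 7.92, 9.87 and 8.43, and 1 tumor at 9.83 lay below the highest of these. Its difference was 1.90 ± 0.24, and those of Pola2, Prim1 and Prim2, the other subunits of the polymerase alpha and primase complex, were 1.34, 1.20 and 1.22, with no overlap between the groups.

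In the clamp and loader group 5 of 6 genes rose, with a median log2 difference of 0.79. Rfc3, a subunit of the loader, rose most. The normal samples measured 8.52, 8.97 and 9.15 and the tumors 9.49, 10.20 and 10.72 (lowest, median, highest). The ranges did not overlap, and the difference was 1.33 ± 0.18, or 2.51-fold (limma, adjusted p = 9.85e-07). Pcna, the sliding clamp itself, stood at 11.59, 11.96 and 11.90 against 12.49, 12.85 and 13.05, with no overlap, and rose by 0.99 ± 0.10, or 1.99-fold (limma, adjusted p = 5.48e-09). Among the other loader subunits the difference was 1.17 ± 0.19 for Rfc5, 0.58 ± 0.20 for Rfc4 and 0.42 ± 0.10 for the large subunit Rfc1, with adjusted p of 1.79e-05, 0.0185 and 0.00186 (limma). Rfc4 did not pass without the first normal sample (adjusted p = 0.0859) or without the third (0.0627). For Rfc2 the levels were 10.98, 10.72 and 10.60 against 10.37, 11.01 and 11.71, with 11 of the 26 tumors at or below the highest normal sample, and the difference of 0.22 ± 0.17 did not pass (limma, adjusted p = 0.315).

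All 3 measured genes of RPA and CAF-1 rose. Chaf1b, a subunit of the chaperone CAF-1 that places histones on new DNA, had levels of 8.51, 7.70 and 8.25 in the normal samples and 9.31, 10.69 and 11.90 (lowest, median, highest) in the tumors. Every tumor was higher, by 2.49 ± 0.28 or 5.62-fold on average (limma, adjusted p = 4.7e-08). Rpa2 and Rpa1, subunits of the protein that coats single-stranded DNA, rose by 0.80 ± 0.11 and 0.38 ± 0.09 (limma, adjusted p = 1.3e-06 and 0.00123). A second probe set gave 1.81 for Rpa2 and 0.42 for Rpa1. The rise of Rpa1 was 1.30-fold, the smallest among the members that passed, yet all 26 tumors lay above the normal samples, with a tumor SD of 0.14.

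The 4 genes of nucleotide supply rose, with a median of 1.28. Tk1, the thymidine kinase of S phase, was measured at 8.76, 9.29 and 9.67 in the normal samples and at 10.72, 11.73 and 12.10 (lowest, median, highest) in the tumors. The ranges were apart, and the difference was 2.36 ± 0.21, or 5.14-fold (limma, adjusted p = 5.94e-10). Tyms, thymidylate synthase, rose by 1.34 ± 0.25 (limma, adjusted p = 1e-04), although its probe set was dim, at 6.54, 6.17 and 6.68 against a tumor median of 7.81. Rrm1 and Rrm2, the subunits of ribonucleotide reductase, rose by 1.22 ± 0.17 and 0.77 ± 0.20 (limma, adjusted p = 1.28e-06 and 0.00284). On other probe sets the differences were 2.34 and 0.85 for Rrm1 and 1.10 and 1.53 for Rrm2, so the size depended on the probe set. For Rrm2 the normal samples of 11.11, 11.92 and 12.05 overlapped 3 tumors, and without the first normal sample the gene did not pass (difference 0.48, adjusted p = 0.103).

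**Figure D2:**
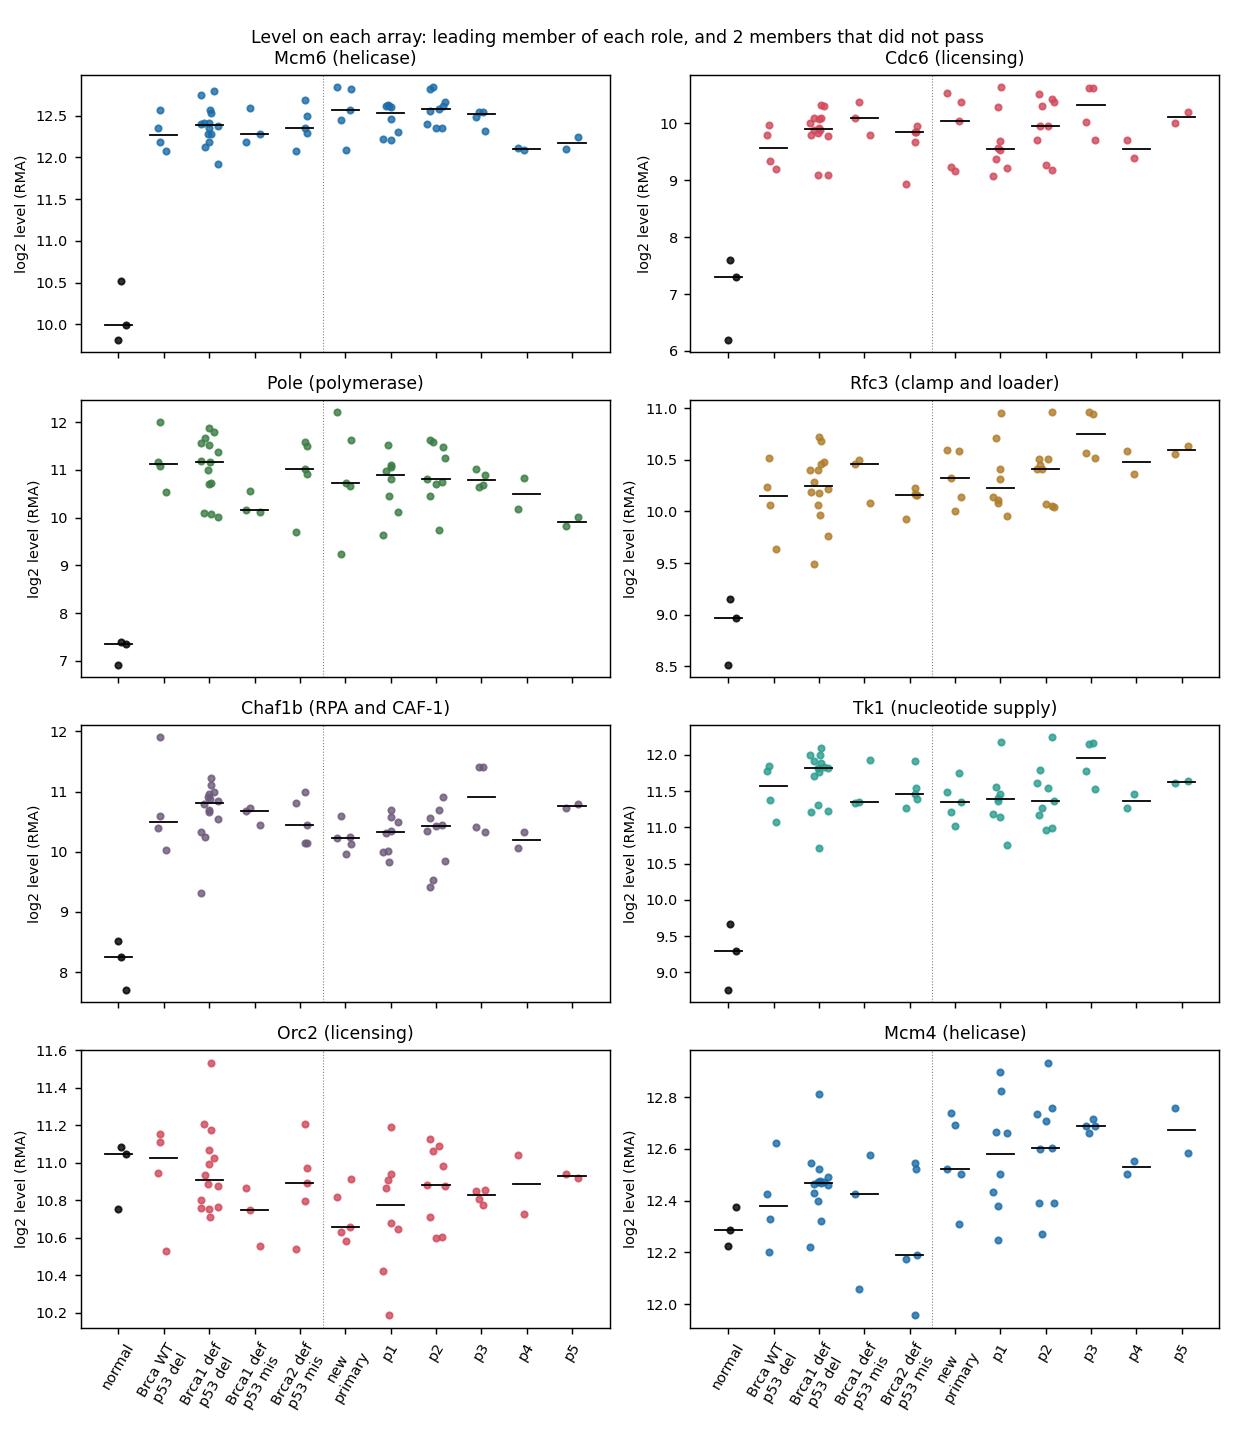
Level on each array (y axes, log2, scales differ between panels) by group (x axis) for the member with the largest rise in each role and for Orc2 and Mcm4, with horizontal lines at group medians and a dotted line between the published and the new set. For Mcm6, Cdc6, Pole, Rfc3, Chaf1b and Tk1 every tumor lies above the 3 normal samples, whereas for Orc2 and Mcm4 the groups overlap.

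The choice of probe set bore on the call or the size of the rise for many members, among them 2 of the 3 genes that did not pass. When each of the 92 member probe sets was tested on its own, an analysis chosen after seeing the data, 73 were higher, 1 was lower and 18 were not called (limma, against 18.5% higher and 23.2% lower of all 45037 probe sets). Of the 39 members, 38 had at least 1 probe set that rose, the exception being Orc2, against 21.5% of all genes, and for 25 of them every probe set was called higher, against 8.94%. A second Mcm4 probe set rose by 0.50 ± 0.11 (limma, adjusted p = 0.000385), and a second Rfc2 probe set by 0.70 ± 0.20 (adjusted p = 0.00647), while the third Rfc2 probe set stood at -0.03. The other Orc2 probe sets differed by 0.05 and 0.57 (adjusted p = 0.913 and 0.133). For Rfc1 the other probe sets differed by -0.01 and 0.17 (adjusted p = 0.966 and 0.499), and with the mean of its probe sets it did not pass (0.19, adjusted p = 0.260). The single probe set that fell was the second of Chaf1b, whose mean level of 5.01 was near the bottom of the scale, by 0.31 (limma, adjusted p = 0.0138). Of the 18 not called, 7 had a mean level under 7. Those above this level included other probe sets of genes called higher on the probe set used. They differed by 0.40 for Rfc4, 0.64 for Tyms and 0.17 for Cdc45 (limma, adjusted p = 0.121, 0.0745 and 0.474).

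**Figure D3:**
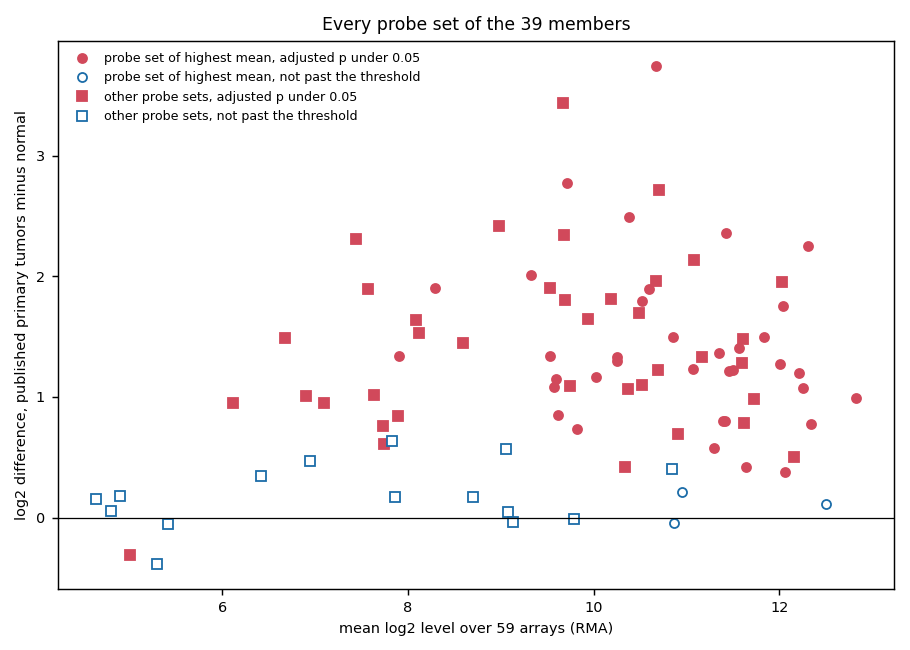
Log2 difference between published primary tumors and normal epithelium (y axis) against the mean log2 level over 59 arrays (x axis) for each of the 92 probe sets of the 39 members, circles for the probe set used for the gene and squares for the others. Filled red symbols passed the adjusted p of 0.05 and open blue ones did not, and 7 of the 18 open symbols lie under a level of 7.

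The rise was found in each tumor genotype, set against the same 3 normal samples in all 4 cases. The members higher were 35 of 39 in Brca-wild type p53-deleted tumors (12% of all genes were higher), 36 in Brca1-deficient p53-deleted tumors (14.4%), 34 in Brca1-deficient p53-missense tumors (9.78%) and 35 in Brca2-deficient p53-missense tumors (12.8%), and 0 were lower in any (limma). Median log2 differences of the members were 1.22, 1.30, 1.24 and 1.25 in this order. Pole differed from normal epithelium by 3.98 ± 0.45, 3.84 ± 0.38, 3.06 ± 0.48 and 3.72 ± 0.43, and Cdc6 by 2.54 ± 0.31, 2.84 ± 0.26, 3.05 ± 0.33 and 2.62 ± 0.29. Mcm6 was almost the same in all 4, at 2.18, 2.27, 2.24 and 2.27. Mcm4, Orc2 and Rfc2 passed in none of the 4, and the loader gene Rfc4 passed only in Brca1-deficient p53-deleted tumors, with 0.51 (adjusted p = 0.0838) in Brca-wild type, 0.21 (0.575) in Brca1-deficient p53-missense and 0.51 (0.0713) in Brca2-deficient tumors.

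No member passed the test between tumor genotypes in the published set. In Brca1-deficient against Brca-wild type tumors with deleted p53, 0 members passed and 0% of all genes were higher or lower (limma), with 0 members and 729 genes (4.01%) at an unadjusted p under 0.05. The differences ran from -0.20 for Tyms to 0.35 for Cdc45, whose 95% interval was -0.05 to 0.76, and for geminin the difference was 0.12, with an interval from -0.36 to 0.60. Between p53 missense and p53 deleted tumors among the Brca1-deficient, 0 members passed, with 0.0989% of all genes higher and 0.170% lower, and 7 of 39 members had an unadjusted p under 0.05, against 11.4% of all genes. Pole, at 10.56, 10.16 and 10.12 in the 3 missense tumors, lay in the lower part of the range of the 14 deleted ones, with a difference of -0.77 ± 0.38 (limma, adjusted p = 0.437). The lowest adjusted p was 0.228, for Pold2, at 10.46, 10.22 and 9.99 in the missense tumors and 0.41 higher than in the deleted ones. The others of the 7 were Mcm5 (0.37) and Rpa1 (0.25) with positive differences and Rfc4 (-0.49), Orc6 (-0.40) and Prim2 (-0.34) with negative ones. Between Brca2-deficient and Brca1-deficient p53-missense tumors, 0 members passed, with 0.0165% of genes higher and 0% lower, and Mcm5 alone of the members had an unadjusted p under 0.05 (-0.49, interval -0.84 to -0.13, limma adjusted p = 0.471), against 7.51% of all genes. Pole measured 10.91, 11.58, 9.70, 11.50 and 11.02 in the 5 Brca2-deficient tumors. The groups overlapped at tumor 23172, and the difference of 0.66 had an interval from -0.23 to 1.55 (limma, adjusted p = 0.781).

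Among the 26 primary tumors the members varied about as much as other genes. Their SD ran from 0.14 for Rpa1 to 0.65 for Pole, with a median of 0.30 against 0.31 over all genes. By role, the median SD was 0.33 for nucleotide supply, 0.32 for licensing, 0.31 for polymerase, 0.29 for clamp and loader, 0.27 for helicase and 0.17 for RPA and CAF-1. Partner genes were correlated across the 26 tumors in 9 pairs, 3 of which passed by the Pearson permutation test with Benjamini-Hochberg adjustment over the 9, and 4 by the Spearman one. The 3 were the ring subunits Mcm2 and Mcm5 (r = 0.55, rho = 0.66, permutation p = 0.00343 and 0.00043, adjusted 0.0309 and 0.00193), the priming partners Pola1 and Prim1 (r = 0.49, rho = 0.71, p = 0.0105 and 5e-05, adjusted 0.0314 and 0.00045), and the loaders Cdc6 and Orc1 (r = 0.51, rho = 0.41, p = 0.00823 and 0.0416, adjusted 0.0314 and 0.0535). The helicase genes Cdc45 and Mcm10 (r = 0.39, rho = 0.47, permutation p = 0.046 and 0.0161, adjusted 0.0689 and 0.0364) and the reductase genes Rrm1 and Rrm2 (r = 0.40, rho = 0.47, p = 0.045 and 0.0162, adjusted 0.0689 and 0.0364) passed by Spearman only, and Cdc6 and Orc1 by Pearson only. Without the 2 tumors farthest from the median of the first gene, r was 0.47, 0.48 and 0.41 for the first 3 pairs, and 0.41 and 0.45 for these. After the genotype means were subtracted, the first 3 had r of 0.48, 0.52 and 0.56, and Cdc45 with Mcm10 and Rrm1 with Rrm2 had 0.34 and 0.32. Cdt1 and its inhibitor geminin had r = 0.14 and rho = 0.14 (permutation p = 0.485 and 0.481, adjusted 0.485 and 0.481), and r = 0.35 without the 2 farthest tumors. Pairs of other genes were not tested, so these values do not show that partners were correlated more than other genes.

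The mean over the members set the normal arrays apart from the tumors. Relative to the mean of the published tumors, the mean over the 39 members was -1.44, -1.30 and -1.21 in the normal samples, and ran from -0.43 to 0.33 in the published tumors, from -0.37 to 0.32 in the new primary tumors and from -0.49 to 0.32 in the passaged tumors. The lowest tumors, at -0.49 to -0.36, were 57452 (passage 1, Brca1-deficient), 56234 (passage 1, Brca1-wild type), 238721, R5810, 29255 and 23172. The mean of the proliferation genes was also below 0 on each of them, at -0.59, -0.93, -0.83, -0.83, -0.78 and -0.35 in the same order. By role, the normal samples ran from -1.79 to -1.36 for licensing, -1.71 to -1.12 for nucleotide supply, -1.58 to -1.55 for polymerase and -0.90 to -0.71 for clamp and loader.

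**Figure D4:**
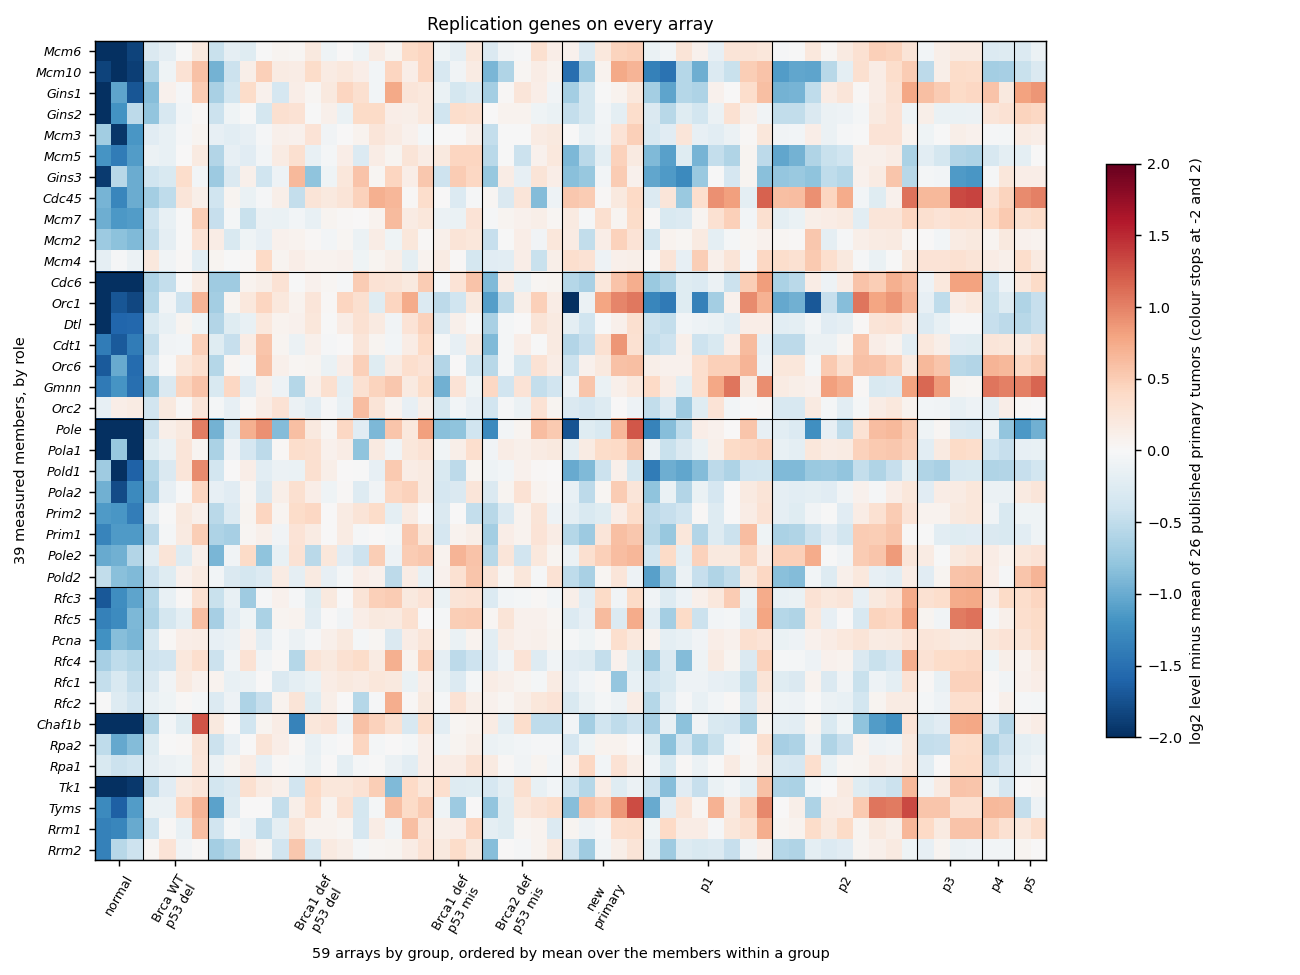
Log2 level of the 39 members (rows, by role) on 59 arrays (columns, by group) minus the member's mean over the 26 published primary tumors, shown from blue (-2) to red (2). The 3 normal columns at the left are blue for nearly all members, with Mcm4, Orc2 and Rfc2 as pale rows, and Orc1 and Pole vary visibly from tumor to tumor.

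Passaged tumors, too, were higher than normal epithelium for most members. Against normal epithelium, with the set as a covariate, 34 of 39 members were higher and 0 lower (limma, background 10.2% higher), with a median log2 difference of 1.25. For 26 of the 39 members every passaged array lay above every normal sample, as for 6.40% of all genes. Pole was higher by 3.58 ± 0.50, Cdc6 by 2.80 ± 0.37, Chaf1b by 2.65 ± 0.36, Tk1 by 2.50 ± 0.29 and Mcm6 by 2.15 ± 0.18, with adjusted p from 1.05e-14 to 1.15e-07 (limma). Besides Mcm4, Orc2 and Rfc2, Gins3 (0.95 ± 0.38, adjusted p = 0.0567) and Rpa1 (0.19 ± 0.15, adjusted p = 0.358) did not pass. Orc1 passed (1.48 ± 0.54, adjusted p = 0.0346), but not without any 1 of the normal samples (adjusted p from 0.0562 to 0.114). Pole2 passed in 5 of 12 settings (adjusted p up to 0.148), Orc1 in 7 of 11, Pold2 in 8 of 11 (up to 0.0931), and Rpa2 and Rrm2 in 10 of 12 each (up to 0.120 and 0.186). Rfc1 and Rfc4 passed in 10 of 11 and Tyms in 9 of 10. Within the new set, 0 members differed between passaged and primary tumors, and 0% of all genes were higher or lower (limma, lowest adjusted p among members 0.869, 0 members and 1179 genes, or 6.48%, at an unadjusted p under 0.05). Differences ran from -0.42 for Orc1, with an interval of -1.31 to 0.47, to 0.21 for geminin, with an interval of -0.14 to 0.55. Between the new and the published primary tumors 0 members passed, with 0.231% of genes higher and 0.126% lower. Tumor 30200 stood on both sides of this comparison, and without its published array 0 members passed as well. The polymerase delta gene Pold1 stood lowest in the new tumors (-0.60 ± 0.20, limma adjusted p = 0.165), and the set and any difference in array processing cannot be told apart.

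Orc1 varied widely between arrays of the new set. Its level was 6.51 in the Brca1-wild type primary tumor 29255, inside the normal range of 6.31 to 6.79, and 9.55 and 9.47 in the other Brca1-wild type primary tumors, 34429 and 32233. In the Brca1-deficient primary tumors 30200 and 39877 it was 8.38 and 9.29. Passage 2 of Brca1-wild type tumors repeated this wide range, at 7.48, 6.80, 9.28, 9.38 and 9.56. Pole was likewise lowest in 29255, at 9.25, against 12.21 in 34429 and 11.63 in 32233. The array of 29255 also had the highest lower quartile of all arrays, at 5.71, and the part of this in its low values was not tested.

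In the new set, 4 members differed by Brca1 genotype, 3 higher and 1 lower in Brca1-deficient tumors (limma, with primary or passaged as a covariate, background 6.49% higher and 4.60% lower). At an unadjusted p under 0.05 there were 13 of 39, against 25.5% of all genes. The counts at the adjusted threshold were close to the shares of all genes, so the values that follow describe single genes and not the list. Geminin had the largest difference. Without the near-identical pair of unlike labels, its levels were 11.07, 12.04 and 12.37 (lowest, median, highest) in 16 Brca1-deficient samples and 10.90, 11.28 and 11.53 in 11 Brca1-wild type samples. Apart from tumors 39877, 61362, 65021 and 64644, every Brca1-deficient tumor lay above every Brca1-wild type tumor. Unlike these levels, and the ranges below, the fits for the 4 members used all 18 and 12 arrays, with both near-identical pairs kept. The fitted difference for geminin was 0.63 ± 0.13, or 1.55-fold (limma, adjusted p = 0.00242), and 0.57 to 1.04 over the alternatives. Geminin was the only member of the 4 to pass under each alternative tried. No alternative left out a whole line, and the new set held only 2 Brca1-deficient and 3 Brca1-wild type primary tumors. If all the passaged tumors descend from these, the comparison rests on few lines, and genotype and line cannot be told apart. Cdc45 was higher by 0.52 ± 0.16 (limma, adjusted p = 0.0378), with overlapping ranges of 9.09 to 10.71 and 8.62 to 10.28, and a second, dimmer Cdc45 probe set differed by -0.10. Mcm7 was higher by 0.26 ± 0.08 (limma, adjusted p = 0.0243), and its 4 probe sets, tested on their own, gave 0.25 to 0.38. Mcm6 was lower by 0.24 ± 0.08 (limma, adjusted p = 0.0459), at 12.09 to 12.62 against 12.31 to 12.84. So 2 subunits of the same helicase ring differed in opposite directions, by less than the range within either genotype. Mcm7 passed in 33 of 36 settings, Cdc45 in 23 of 37 and Mcm6 in 19 of 37 (limma, adjusted p up to 0.318, 0.262 and 0.283). Tested on its own, the Mcm6 probe set used did not pass (adjusted p = 0.0521), and a second one did (-0.26, 0.0232). Other probe sets of Mcm2 (-0.25), Mcm5 (-1.03, dim), Rfc3 (0.35) and Rfc4 (0.40) also passed on their own (limma, adjusted p from 0.0053 to 0.0496).

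These genotype differences depended on which tumors were included. With primary tumors and passages 1 and 2 alone, where both genotypes were sampled, 1 of the 4 members passed, which was geminin. Without tumor 61362, of the near-identical pair, 9 members passed, without tumor 62803 4 did, and with each near-identical pair counted once 5 did. Counts were 7 without 39877 or 57452, 2 without any 1 of 65026, 65076, 59232, 63846, 63935 and 57093, and 1 without 61333. The shares of all genes in these runs are not given here, so the counts show only how far the calls moved. The difference of the Brca1 effect between the new and the published set passed for 0 members (limma, lowest adjusted p = 0.333, background 0.110% higher and 0.0330% lower). For geminin it was 0.51, with an interval from 0.01 to 1.02 (adjusted p = 0.447). Among the markers, 3 of 7 endothelial genes were lower in Brca1-deficient tumors, with a mean level of 7.89 to 8.55 against 8.13 to 9.21, as were 2 of 11 epithelial genes, with 11.45 to 12.04 against 11.46 to 12.55. Of 10 granulosa, theca and luteal genes 1 was higher, and 0 of 13 proliferation genes passed. The part of these cells in the result was not tested.

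**Figure D5:**
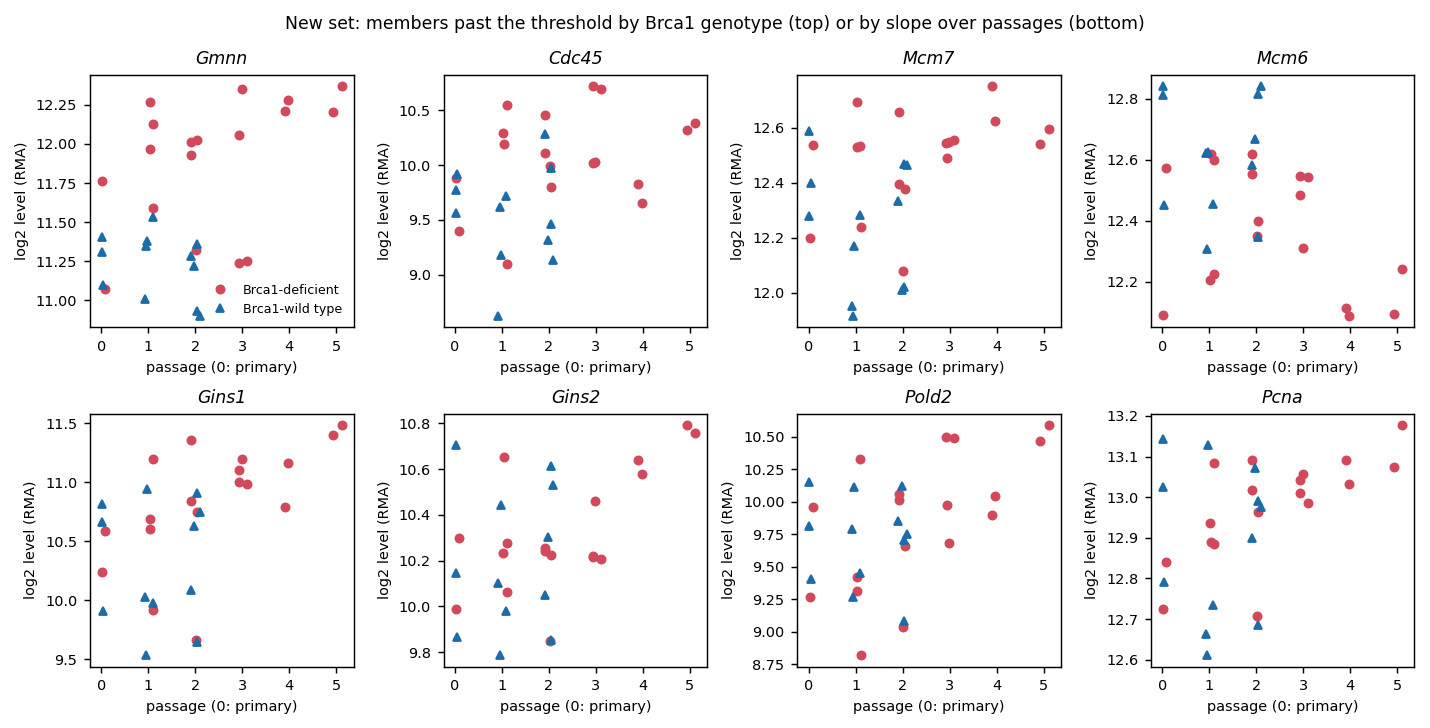
Log2 level (y axes, scales differ) by passage number (x axis, 0 for primary tumors) in 18 Brca1-deficient (red circles) and 12 Brca1-wild type (blue triangles) tumors of the new set, for the 4 members that differed by genotype (top) and the 4 that changed with passage in Brca1-deficient tumors (bottom). Most Brca1-deficient tumors lie above the Brca1-wild type ones for Gmnn, and the passage 5 tumors lie near the top for Gins1, Gins2, Pold2 and Pcna.

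With passage number, 4 members rose and 0 fell in the new set among its 18 Brca1-deficient tumors (limma, slope per passage from primary tumors to passage 5, background 8.70% rising and 6.46% falling), and 11 of 39 had an unadjusted p under 0.05, against 29.3% of all genes. Both counts were close to the shares of all genes, and the slopes below describe single genes. Gins1, of the GINS complex, measured 10.24 and 10.59 in the primary tumors, 10.69, 10.61, 9.92 and 11.20 at passage 1, 10.75, 10.84, 9.66 and 11.36 at passage 2, between 10.98 and 11.20 on the 4 arrays of passage 3, 11.17 and 10.79 at passage 4, and 11.48 and 11.40 at passage 5. The passage 5 tumors were the highest, and passages 1 and 2 spanned nearly the whole range. Its slope was 0.20 ± 0.06 per passage (limma, adjusted p = 0.0426). Slopes were 0.20 ± 0.07 for Pold2, 0.11 ± 0.03 for Gins2 and 0.06 ± 0.02 for Pcna (limma, adjusted p = 0.0444, 0.0311 and 0.0425). Pold2 stood at 9.26 and 9.96 in the primary tumors and at 10.59 and 10.47 at passage 5, Gins2 at 9.99 and 10.30 against 10.76 and 10.79, and Pcna at 12.72 and 12.84 against 13.18 and 13.07. For each of these 3 the passage 5 tumors were above the primary ones. Each probe set was also tested on its own. The slope was then -0.23 for a second Orc1 probe set, and -0.15 and -0.19 for others of Dtl (limma, adjusted p = 0.0173, 0.0368 and 0.0435). Other probe sets of Rrm2, Mcm3, Gins1 and Gins2 rose, by 0.19, 0.08, 0.15 and 0.11 (adjusted p from 0.0262 to 0.0427). Those used for Gins1 and Pold2 did not pass (0.0503 and 0.0521), and those for Gins2 and Pcna did. The calls rested on single tumors: 0 members passed without tumor 30200, 62337, 65026 or 65076, 1 without 47362, 47343, 57080, 60530, 62338 or 65021, 2 without 57078, 61742 or 64644, and 7 without 39877. Shares of all genes in these runs are likewise not given here. Tumors 65026 and 65076, the only arrays of passage 5, were also the third closest pair of arrays, with an SD of 0.209. Markers of other cells rose over the same passages, with 4 of 9 macrophage, 5 of 7 T and NK cell, 3 of 12 oocyte and 1 of 8 fibroblast genes rising, and 1 of 13 proliferation genes. The macrophage mean was 8.54 to 10.5 in these 18 tumors and the T and NK cell mean 5.10 to 6.79, and their part in the slopes was not tested.

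Other replication genes outside the list behaved in a mixed way in the primary tumors. Of 42 measured, 26 were higher and 1 lower than in normal epithelium (limma, against the 15.0% and 26% of all genes). Dna2, a nuclease that trims Okazaki fragments, rose by 3.60 ± 0.28, the checkpoint mediator Clspn by 3.41 ± 0.29, the clamp unloader Atad5 by 2.39 ± 0.19, and the kinase Cdc7, which fires origins, by 2.37 ± 0.34 (limma, adjusted p from 1.71e-11 to 2.26e-06). Top2a, the topoisomerase that untangles sister DNA, rose by 2.16 ± 0.17, and Tipin, of the fork protection complex, by 2.10 ± 0.24 (limma, adjusted p = 3.2e-11 and 5.74e-08). Besides the member Orc2, the core ORC genes Orc3, Orc4 and Orc5, which were singled out after their values were seen, did not pass, at -0.04, 0.19 and 0.03 (adjusted p = 0.786, 0.455 and 0.89). Pold4, the small subunit of polymerase delta, was lower by 0.94 ± 0.25 (log2 difference -0.94, limma, adjusted p = 0.00354), whereas the members Pold1 and Pold2 of the same enzyme rose by 1.49 and 0.74.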

How the data were processed

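Transcript levels were measured on Affymetrix mouse arrays. The authors deposited log2 values made with RMA (version not given in the sources used here) for 45037 probe sets, of which 34945 had 1 gene symbol. They also deposited a table of log2 values merged with human samples. It holds 27 of the members and served as an alternative, and its 278 columns of other samples were not used. Arrays hold no counts, so the number of arrays limits the precision. Each of 18193 genes took the probe set of highest mean over 59 arrays. Two-sided tests were made in R 4.3.3 with the lmFit and eBayes functions of limma 3.58.1, adjusted by Benjamini-Hochberg over all genes. Correlations used 100000 permutations. By the rule for named genes, every one of the 39 measured members could be named, with up to 6 of the other replication genes of largest change and those that fell. The members, the lists of other replication genes and the markers were chosen with earlier results of these data known. In simulated data, 65 of 100 genes changed by 1 (log2) and 94 of 100 changed by 2 were recovered for primary tumors against normal epithelium among 18193 genes. Alternatives were array weights, the mean of all probe sets, a trended and robust eBayes, brighter genes alone, the merged table, other covariates or samples, and leaving out samples in turn. Testing each probe set, and leaving out each passaged tumor, were chosen after seeing the data. Figures were drawn with matplotlib 3.10.9.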

Additional observations from a re-analysis of the deposited data

Results flagged for a closer look

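Over 117 groups of values of 4 to 10 samples, 8 held a sample far from the others by Dixon's test, and chance flags about 1 group in 20. Of these, 6 were the same tumor, 23172, of the Brca2-deficient p53-missense group of 5. It was lowest for Cdc6 at 8.93 (next tumor 9.66), Cdt1 at 11.03 (11.87), Prim1 at 11.7 (12.4), Pcna at 12.6 (12.9), Rfc3 at 9.93 (10.2) and Rrm2 at 11.6 (12.4). Its mean over the members was -0.36 relative to the published tumors, and its proliferation mean -0.35. In the same group, tumor 15825 was highest for Rfc5, at 10.3 against 10.1 for the next tumor. Among the 5 new primary tumors, 32233 was lowest for Rfc1, at 10.9 against 11.6.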

How the results depend on the processing

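The comparisons with normal epithelium kept their direction and their side of the threshold for most members. Leaving out samples in turn gave 33 to 36 members higher for all primary tumors, 30 to 36 for Brca-wild type, 33 to 36 for Brca1-deficient p53-deleted, 32 to 33 for Brca1-deficient p53-missense, 32 to 35 for Brca2-deficient and 30 to 31 for passaged tumors. The comparisons with 0 members stayed at 0 under every alternative run. Of the values of single members against normal epithelium, 330 of 337 kept their call for primary tumors, with 5 lost and 2 gained, and 376 of 397 for passaged tumors, with 21 lost. No value reversed. The count by Brca1 genotype in the new set, 4, became 8 with the mean of all probe sets, 9 with array weights, 8 with only the brighter genes tested, 7 in the merged table and 1 with primary tumors and passages 1 and 2 alone, and ran from 1 to 9 when tumors were left out in turn. The count by passage, 4, became 7 with the mean of all probe sets and 14 with array weights, and ran from 0 to 7 when tumors were left out in turn. Shares of all genes called under these alternatives are not given here, so the counts do not set the members apart from other genes. Of the correlated pairs, 6 passed with the mean of all probe sets in place of 3. The causes were not tested, apart from the fewer samples or genes that some alternatives use. No paired analysis was possible because the groups compared share fewer than 2 tumors (only 30200 was profiled in both sets) and the labels give no replicate number in common. With 3 normal samples, each comparison with them rests on few arrays, and the probe sets of low level lie close to background.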
